A study of Mus musculus with 135 samples.

Results

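Toll-like receptors are membrane receptors that recognise molecules of microbes and of damaged cells, and 10 of their genes (Tlr1 to Tlr9 and Tlr13) were followed in the brain of mice with sickle cell disease. The members were the genes of those symbols, 10 of the 55416 genes in each of the count tables, and every one was found in both tables. RNA was sequenced in bulk from 2 brain regions, cortex and hippocampus, of male Townes mice, 6 months old, in which the mouse globin genes are replaced by human ones: AA mice, the humanized controls with normal human beta-globin, and SS mice, which carry the sickle form and develop sickle cell disease. Some mice, here called control mice, had no social defeat and no drug. Others were exposed to repeated social defeat (RSD), in which an aggressive male intruder was placed with them on consecutive days. Others were given minocycline, a tetracycline antibiotic, in the drinking water, or had both, with minocycline begun before RSD. By the paper, minocycline ended with the last RSD session. Mice of all groups then went through behavioural tests, which included fear conditioning with foot shocks, and brains were taken after these tests. Groups are named as AA, AA + RSD, AA + minocycline, AA + RSD + minocycline and the same for SS. In the cortex 66 libraries were compared, of which 34 came from AA mice (12 control, 3 AA + RSD, 18 AA + RSD + minocycline and 1 AA + minocycline) and 32 from SS mice (8 control, 14 SS + RSD + minocycline, 6 SS + RSD and 4 SS + minocycline), and in the hippocampus 64, with 11 AA and 7 SS and the other groups as in the cortex. The comparison asks whether sickle genotype, social stress and minocycline, which is used as an inhibitor of microglial activation, go with a different level of these receptors.

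The receptors fall into families by what they bind and where they sit. Tlr2, which pairs with Tlr1 or Tlr6, binds bacterial lipoproteins at the cell surface, Tlr4 binds lipopolysaccharide with its partners Cd14 and Ly96, and Tlr5 binds flagellin. Tlr3 (double-stranded RNA), Tlr7 and Tlr8 (single-stranded RNA), Tlr9 (unmethylated CpG DNA) and the rodent receptor Tlr13 (bacterial ribosomal RNA) sit in endosomes and need the chaperone Unc93b1. Most signal through Myd88 to NF-kappaB and the interferon regulatory factors, Tlr3 through Ticam1, and Tlr4 through both. In the brain, microglia express most of them, astrocytes express Tlr3, and free heme, which is released when sickle red cells break, is described as a ligand of Tlr4.

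By the GENCODE M39 annotation of the GRCm39 genome, Tlr2 lies at chr3:83743576-83749074, Tlr3 at chr8:45848702-45864117, Tlr4 at chr4:66745783-66849936, Tlr5 at chr1:182782311-182805500 and Tlr9 at chr9:106099797-106104082. Tlr1 (chr5:65082022-65090941) and Tlr6 (chr5:65108704-65203497) are neighbours and close paralogs, so that reads which match both could be split between them. The X chromosome holds Tlr13 (chrX:105186810-105204533) and the neighbours Tlr8 (chrX:166024184-166047325) and Tlr7 (chrX:166086758-166113605). An exon of a gene on the opposite strand overlaps 8.19% of the exonic bases of Tlr3 (Gm45542) and 3.35% of those of Tlr4 (Gm69151). Whether reads were counted by strand is not given in the sources used here, so reads from those stretches are uncertain. No other member overlaps an exon of another gene.

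Tlr2 and Tlr13 were the members that passed the test within a tissue, between treatments or between the number series of control mice described below. The 250 bases before the start of each are shown. They come from the RefSeq promoter table of the GRCm38.p6 build, at chr3:83841609-83841858 on the minus strand for Tlr2 and chrX:106143025-106143274 on the plus strand for Tlr13, and are written 5′ to 3′ along the gene. Capitals mark a match on either strand to the NF-kappaB consensus motif (in Tlr2) or to GAGGAA, the core of the motif of PU.1, a transcription factor of myeloid cells (in Tlr13).
Tlr2: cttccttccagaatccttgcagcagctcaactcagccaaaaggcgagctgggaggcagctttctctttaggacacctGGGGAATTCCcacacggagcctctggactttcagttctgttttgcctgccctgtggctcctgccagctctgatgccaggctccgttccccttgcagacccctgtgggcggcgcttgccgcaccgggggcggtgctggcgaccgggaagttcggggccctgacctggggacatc
Tlr13: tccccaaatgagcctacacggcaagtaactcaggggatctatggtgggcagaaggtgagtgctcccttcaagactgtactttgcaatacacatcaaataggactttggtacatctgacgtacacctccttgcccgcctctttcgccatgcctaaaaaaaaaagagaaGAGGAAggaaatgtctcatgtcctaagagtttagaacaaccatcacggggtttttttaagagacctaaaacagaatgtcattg
The table held 10 promoters of 8 members, with none for Tlr4 and Tlr7. The NF-kappaB consensus was matched in the promoters of Tlr2 and Tlr3 and in 7.25% of all 32851 promoters of that length, and GAGGAA in those of Tlr1, Tlr8, Tlr9 and Tlr13 and in 23.3% of all. The interferon-stimulated response element core (GAAA, any 2 bases, GAAA) was matched in Tlr6 alone among the members and in 2.98% of all promoters.

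The libraries held 12869149 to 107713193 reads on genes, with a median of 34025729. The libraries of AA + RSD + minocycline mouse 9877 and SS + minocycline mouse 9887 had identical counts in each tissue under different group labels and were left out of every group. Mouse numbers in the labels fall into runs, called number series A, B and C. Every mouse exposed to RSD without minocycline was of series A, all mice given minocycline were of series B or C, and control mice were of series A or B, so the series and the treatment move together. The library labelled 9674, an AA + RSD mouse, went against its tissue label: its cortex library had the highest summed CPM (counts per 1000000 reads on genes) of 4 hippocampal neuron markers among 66 cortex libraries, 597 against at most 341 in the others, and 5165 of 4 choroid plexus markers, and its hippocampus library had the lowest of those choroid plexus markers among 64, 15.4, and 219 of the hippocampal neuron markers, against 328 to 677 in 59 others. Each of its libraries thus had marker levels like those of the other tissue, and whether they were exchanged was not tested. Libraries of 4 further mice stood apart from their groups in blood genes. The 3 detected erythroid markers, which are high in SS mice, summed to 107.6 CPM in the cortex and 63.2 in the hippocampus of AA mouse 5844 and to 57.6 and 51.8 in AA + RSD + minocycline mouse 5853, where the medians of their groups were 4.64 and 3.93, and 5.05 and 3.93. They summed to 7.03 and 3.79 in SS + RSD + minocycline mouse 7078, where the group medians were 83.0 and 66.3. AA mouse 9631 had 1944 and 1570 counts of the mouse beta-globin gene Hbb-bs, of which no other library had more than 8. All of these libraries are in the groups of their labels below. An alternative, chosen with earlier results of these data known, left out these 5 mice and is named where it changes a call.

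**Figure D1:**
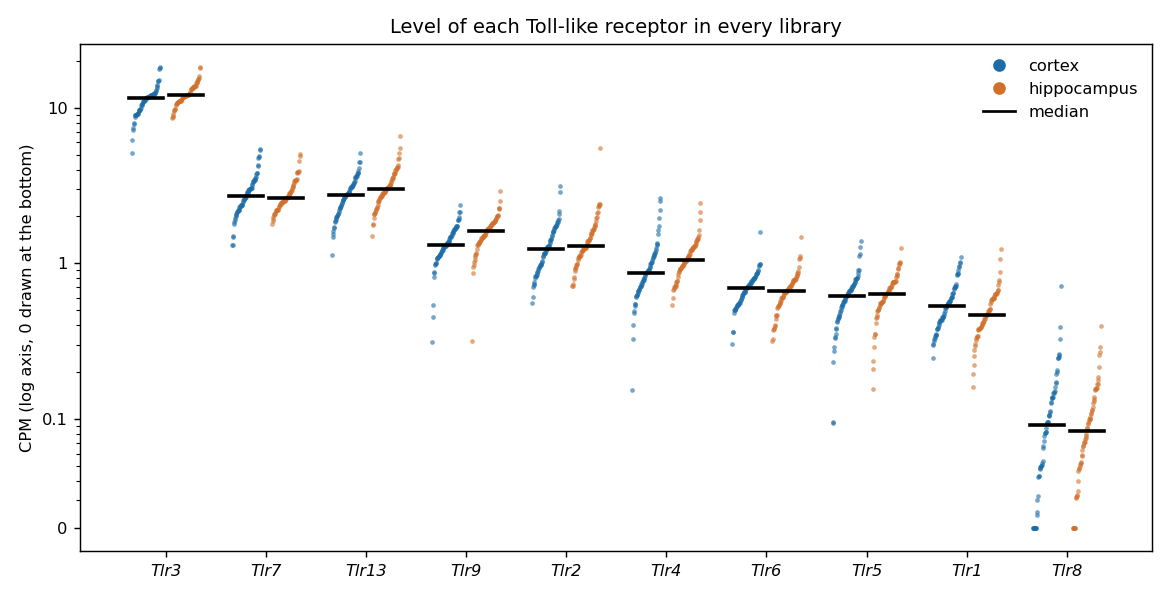
CPM of each member (log axis) in every library, with cortex in blue, hippocampus in orange and a black line at the median. Tlr3 lies highest, with a median of 11.7 CPM over both tissues, and Tlr8 lowest, with 14 of 130 libraries at 0.

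Tlr3 was the most abundant member and Tlr8 the least. Over all 130 libraries Tlr3 ranged from 5.13 to 18.2 CPM (median 11.7), Tlr13 from 1.13 to 6.55 (median 2.84) and Tlr7 from 1.31 to 5.39 (median 2.65). The median was 1.47 CPM for Tlr9, 1.26 for Tlr2, 0.960 for Tlr4, 0.678 for Tlr6, 0.627 for Tlr5 and 0.496 for Tlr1, and these genes rested on median counts between 17 and 49.5 reads, so that 1 or a few reads move them visibly. Tlr8 had a median of 3 reads (at most 19), and a count of 0 in 14 libraries allows a level of up to 0.0643 to 0.184 CPM, counting error only. The spread over libraries was 19.6% of the mean for Tlr3, 28.2 to 29.6% for Tlr6, Tlr7, Tlr9 and Tlr13, and 42.6% for Tlr2, the widest among the members other than Tlr8.

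To compare genes, CPM was divided by the length of all exons in kilobases in the AA mice. In the cortex (n = 12) Tlr3 stood at 2.03 ± 0.332 CPM per kilobase (SD), above every library of every other member, followed by Tlr7 (0.623 ± 0.179), Tlr13 (0.589 ± 0.168) and Tlr9 (0.411 ± 0.0549). Tlr7, Tlr13 and Tlr9 overlapped their neighbours in that order, whereas each Tlr9 value lay above each Tlr2 value. Tlr2 (0.194 ± 0.0602), Tlr1 (0.168 ± 0.0567), Tlr6 (0.151 ± 0.0312), Tlr4 (0.121 ± 0.0274) and Tlr5 (0.0957 ± 0.0173) formed a run in which neighbours overlapped, and Tlr8 lay below all of them at 0.0151 ± 0.0114. The endosomal receptors other than Tlr8 thus held the 4 upper places and the surface receptors the next 5. In the hippocampus (n = 11) the same 4 genes led, with Tlr3 at 2.26 ± 0.261 and Tlr13 at 0.617 ± 0.154, and there the ranges of Tlr9 and Tlr2 overlapped. Divided by the length of the canonical transcript alone, Tlr2 in the hippocampus came out at 0.465 CPM per kilobase, above Tlr9 at 0.444, so the places of these genes depend on the length taken.

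Between the tissues of control mice, Tlr4 was higher in the hippocampus of AA mice and Tlr9 in that of SS mice. Of the 9 members tested, 1 passed an adjusted p of 0.05 in AA mice, where 36.6% of all 19255 genes did, and 1 in SS mice, where 30.6% did. In AA mice Tlr4, the lipopolysaccharide receptor, was 0.494 to 1.14 CPM in the cortex (median 0.816) and 0.705 to 2.14 in the hippocampus (median 1.25). It was higher in the hippocampus of 10 of 11 mice, with a log2 fold change of 0.50 (SE 0.17, edgeR's quasi-likelihood test, adjusted p = 0.0162). In SS mice Tlr9, the receptor of CpG DNA, was 0.884 to 1.89 CPM in the cortex (median 1.097) and 1.03 to 2.05 in the hippocampus (median 1.83), higher in 6 of 7 mice, with a log2 fold change of 0.44 (SE 0.17, adjusted p = 0.0386). This Tlr9 call was lost without the filter on low counts (adjusted p = 0.0698) and in a model of SS mice only (0.125). With the mouse as a paired block Tlr2 also passed in AA mice, where it was higher in the hippocampus of 10 of 11 mice (0.43, SE 0.15, adjusted p = 0.0242), and Tlr3 in SS mice, where it was higher in 7 of 7 (0.28, SE 0.07, adjusted p = 0.00353). The share of all genes that passed with this block is not given here, so these calls are not set against it. No difference of these tissue effects between the genotypes was tested. In bulk tissue, more cells that express a gene and more RNA in each of them cannot be told apart.

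**Figure D2:**
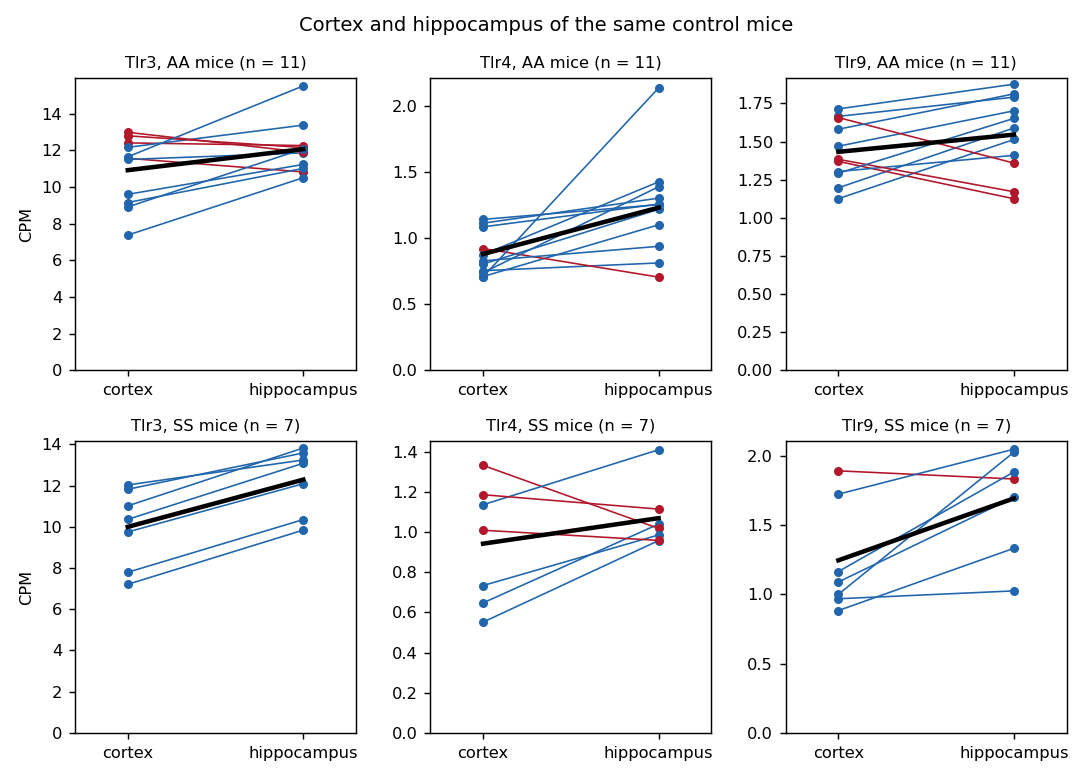
CPM of Tlr3, Tlr4 and Tlr9 in cortex and hippocampus of the same control mice, 1 thin line a mouse (blue where higher in the hippocampus, red where lower) and the mean in black. Tlr3 was higher in the hippocampus of 7 of 7 SS mice and Tlr4 in 10 of 11 AA mice.

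Sickle genotype alone went with no called difference. Between SS and AA control mice 0 of 10 members passed in either tissue, while 0.214% of all genes passed in the cortex and 0.159% in the hippocampus, and 0 members had an unadjusted p under 0.05. The smallest p in the cortex was that of Tlr7, the single-stranded RNA receptor. It lay at 2.14 to 3.51 CPM in SS mice (median 2.71) and 2.15 to 5.31 in AA mice (median 3.01), a log2 fold change of -0.28 (SE 0.19, adjusted p = 0.801). In the hippocampus it was that of Tlr4, with medians of 1.02 CPM in SS and 1.25 in AA mice and a log2 fold change of -0.23 (SE 0.21, adjusted p = 1). Without the 5 mice whose libraries stand apart, 0 of 10 were called in either tissue as well. The median log2 fold change of the members was -0.01 in the cortex and 0.02 in the hippocampus, beside 0.00 and 0.01 over all genes.

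In SS mice exposed to RSD the members had higher fitted levels than in SS mice, but none passed the test. Of 9 members tested, 8 had a positive log2 fold change in the cortex and 9 in the hippocampus, with medians of 0.37 and 0.44 beside 0.08 and 0.06 over all genes. The call rate was 0 of 9, while 2.57% of all genes passed in the cortex and 3.11% in the hippocampus. At an unadjusted p under 0.05 it was 0 of 9 in the cortex and 3 of 9 in the hippocampus, where 27.7% and 19.6% of all genes had such a p. Members are measured in the same libraries and are not independent of each other. The 10 microglial markers had a median log2 fold change of 0.44 in the cortex (1 called higher) and 0.36 in the hippocampus (0 called), and their summed level was 438 to 597 CPM in the cortex of SS + RSD mice against 343 to 481 in SS mice. The part of the microglial markers in the members' values was not tested.

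The member nearest to the threshold was Tlr13, the receptor of bacterial ribosomal RNA, in the hippocampus. The 6 SS + RSD libraries gave 3.74 CPM in mouse 5354, 3.75 in 5391, 2.26 in 5400, 6.55 in 9615, 5.15 in 9616 and 5.54 in 9621, and the 7 SS libraries 2.52 to 3.55 (median 3.06). Thus 5 of 6 lay above every SS library and mouse 5400 below all of them. The log2 fold change was 0.68 (SE 0.23, adjusted p = 0.0878). It was called by DESeq2 (0.67, adjusted p = 0.0470) and without mouse 5400 (0.81, adjusted p = 0.0409). The SS mice of number series A, to which all SS + RSD mice belong, were only 2 and had 3.26 and 3.55 CPM, and with a term for the series Tlr13 had a log2 fold change of 0.41 (SE 0.27, adjusted p = 0.840). Relative to the mean log2 level of the microglial markers it differed by 0.28. In the cortex the smallest p was that of Tlr3, at 9.06 to 17.96 CPM in SS + RSD mice (median 11.3) and 7.21 to 12.03 in SS mice (median 10.7), a log2 fold change of 0.37 (SE 0.19, adjusted p = 0.209). Relative to the mean of the microglial markers the difference of Tlr3 was -0.04.

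**Figure D3:**
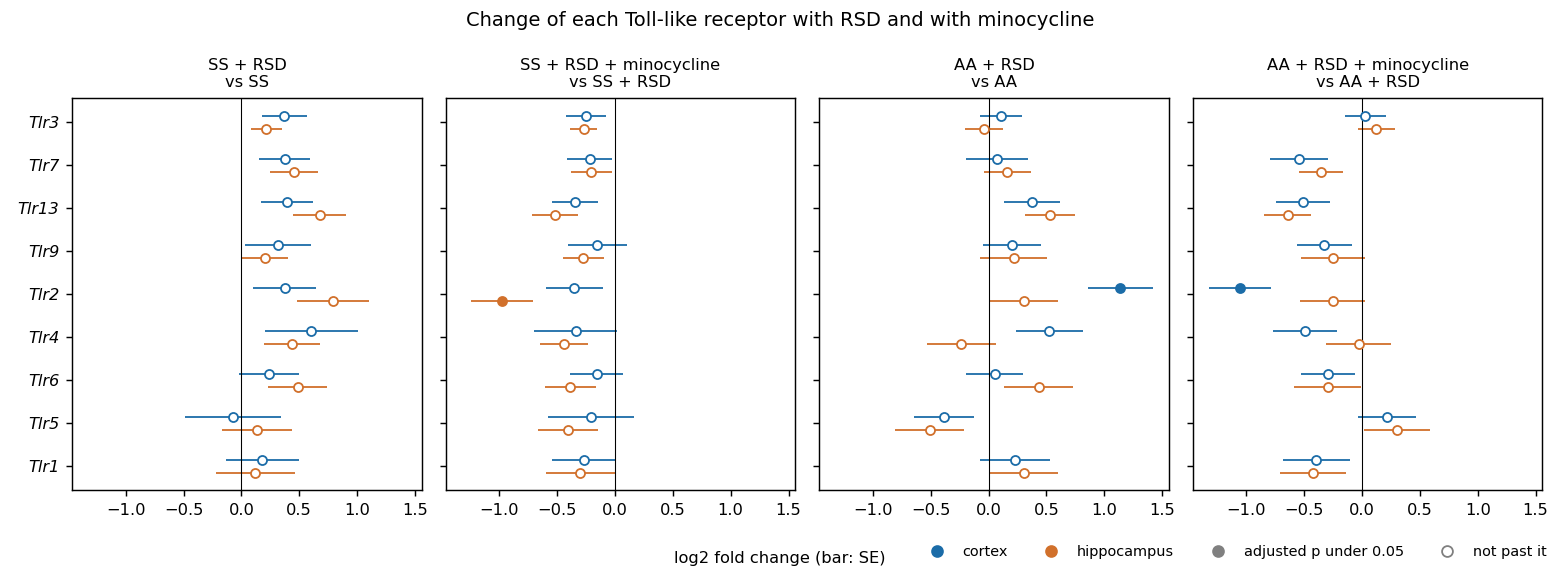
Log2 fold change of each of the 9 members tested within a genotype (bars, SE), for RSD against no RSD and for minocycline in mice exposed to RSD, in cortex (blue) and hippocampus (orange). Filled points passed an adjusted p of 0.05: Tlr2 in the cortex of AA mice in both comparisons and in the hippocampus of SS + RSD + minocycline against SS + RSD mice.

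Tlr2, the lipoprotein receptor, was lower in the hippocampus of SS + RSD + minocycline mice than of SS + RSD mice. The 6 SS + RSD libraries held 1.19 CPM in mouse 5354, 1.40 in 5391, 1.18 in 5400, 5.48 in 9615, 2.14 in 9616 and 2.38 in 9621. The 14 SS + RSD + minocycline libraries held 0.712 to 1.72 CPM (median 1.18) and the 7 SS libraries 0.797 to 1.94 (median 1.27). All 14 treated libraries lay under the SS + RSD median of 1.77, 7 of them under every SS + RSD library, and the ranges of the groups overlapped. The log2 fold change was -0.98 (SE 0.27, adjusted p = 0.0330), 1 of 9 members called against 5.96% of all 20701 genes.

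This call rested on few libraries. Without mouse 9615 the log2 fold change of Tlr2 was -0.49 (SE 0.24, adjusted p = 0.217), and with a term for the number series, which sets series B and C against the series A of all SS + RSD mice, it was -0.30 (SE 0.54, adjusted p = 0.855). The hippocampus library of 9615 also had the highest summed level among 64 of the 10 microglial markers (735 CPM, at most 630 in the others), of the 3 T cell markers (2.91, at most 1.07 elsewhere) and of the 3 monocyte markers (2.25, at most 1.68), and the next to highest of the choroid plexus markers (9181). Its 7 neutrophil markers summed to 0.983 CPM with 3 of them at 0, where 59 other hippocampus libraries had a median of 0.402 and at most 3.92. Over the group the microglial markers summed to 469 to 735 CPM in SS + RSD and 349 to 582 in SS + RSD + minocycline mice, and 2 of 10 were called lower. Relative to the mean log2 level of the microglial markers, Tlr2 differed by -0.39.

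All 9 members tested had negative log2 fold changes in this comparison, from -0.98 to -0.20 in the hippocampus (median -0.39, beside -0.03 over all genes) and from -0.35 to -0.15 in the cortex (median -0.25, beside -0.05). In the hippocampus 4 of 9 members had an unadjusted p under 0.05, where 26.8% of all genes did, and Tlr13, with a median of 3.08 CPM in treated and 4.45 in SS + RSD mice, was not called (-0.52, SE 0.20, adjusted p = 0.0960) except, among the alternatives run, without mouse 5400 (-0.65, adjusted p = 0.0461). The SS + RSD libraries of this comparison are those compared with SS mice above, so its values are not a separate observation of them. The treated mice were of series B or C, and the lower levels of 7 of 9 members in series B controls have the same direction. In the cortex 0 of 9 members were called against 8.85% of all genes, and 0 had an unadjusted p under 0.05, where 26.4% of all genes did. Tlr13 had the smallest p there, with a median of 3.12 CPM in SS + RSD + minocycline and 3.13 in SS + RSD mice and a log2 fold change of -0.35 (SE 0.20, adjusted p = 0.272). That sign was lost with a term for the number series, which gave 0.09.

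**Figure D4:**
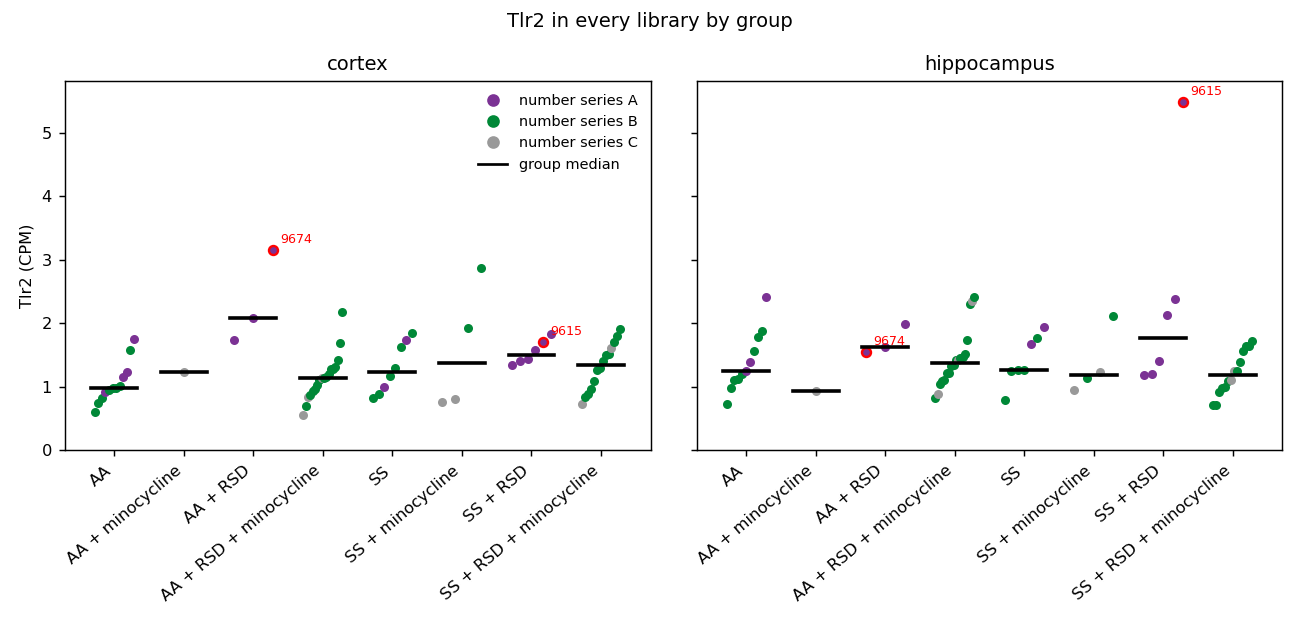
CPM of Tlr2 in every library by group, cortex on the left and hippocampus on the right, coloured by number series of the mouse, with the group median as a line. The libraries of mice 9674 (AA + RSD) and 9615 (SS + RSD) are circled in red: 9674 is the highest of the cortex at 3.15 CPM and 9615 the highest of the hippocampus at 5.48.

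Minocycline without RSD was tested in 4 SS mice. None of the 9 members passed against SS mice in either tissue, and of all genes 0% passed in the cortex and 0% in the hippocampus by edgeR (1406 and 449 genes at an unadjusted p under 0.05). Tlr7 in the cortex was 1.505 to 2.02 CPM in the 4 SS + minocycline libraries (median 1.90). It was 2.14 to 3.51 CPM in the 8 SS libraries (median 2.71), a log2 fold change of -0.53 (SE 0.26, adjusted p = 0.702). In the hippocampus Tlr5, the flagellin receptor, had the smallest p, at 0.157 to 0.760 CPM against 0.466 to 0.976 (-0.39, SE 0.34, adjusted p = 0.981).

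Tlr2 split the same 4 mice by their number series in the cortex only. In the hippocampus it was 1.14 and 2.11 CPM in the series B mice and 0.950 and 1.24 in those of series C, which overlap. In the cortex the series B mice 9888 and 9889 had 2.87 and 1.93 CPM, above every SS library (0.828 to 1.84), and the series C mice 7108 and 7121 had 0.811 and 0.762, below every one. Tested among series B mice only, Tlr2 was called higher with minocycline (log2 fold change 1.08, SE 0.34, adjusted p = 0.0234), 1 of 10 members in a fit that called 27.1% of all genes, and over all 4 mice it was not (adjusted p = 0.832). Tlr13 in the hippocampus was divided likewise, at 4.03 and 4.31 CPM in 9888 and 9889 and 1.95 and 2.11 in 7108 and 7121. Other members were divided the other way in the cortex, with Tlr3 at 5.13 and 9.00 CPM in the series B mice and 11.1 and 11.7 in those of series C, and Tlr4 at 0.154 and 0.479 against 0.783 and 0.907. With 2 mice in each series this is a description of these libraries.

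In the mice that had both RSD and minocycline, 0 of 9 members were called against control mice of the same genotype. Over all genes the share was 0% in SS cortex and 0% in SS hippocampus (1227 and 759 at an unadjusted p under 0.05), and 0.0319% in AA cortex and 0% in AA hippocampus (622 at an unadjusted p under 0.05 in the latter). Tlr7 had the smallest p in all 4 comparisons. In the AA cortex it lay at 1.31 to 4.91 CPM in AA + RSD + minocycline mice (median 2.28) and 2.15 to 5.31 in AA mice (median 3.01), with a log2 fold change of -0.47 (SE 0.15, adjusted p = 0.461), and in the AA hippocampus the log2 fold change was -0.19 (SE 0.12, adjusted p = 1.00). In SS mice it was 0.16 (SE 0.18, adjusted p = 0.977) in the cortex and 0.25 (SE 0.17, adjusted p = 0.999) in the hippocampus.

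Tlr2 was higher in the cortex libraries of AA + RSD mice than of AA mice, a call lost without the library labelled 9674 and also with a term for the number series. The 3 AA + RSD libraries held 2.08 CPM in mouse 9643, 1.73 in 9646 and 3.15 in 9674, the AA libraries 0.612 to 1.76 (median 0.981, n = 12) and the AA + RSD + minocycline libraries 0.560 to 2.18 (median 1.14, n = 18). Against AA mice 2 of the 3 lay above every library, and 17 of the 18 treated libraries lay below all 3. The log2 fold change was 1.14 for RSD (SE 0.28, adjusted p = 0.0377), 1 of 9 members called against 0.853% of all genes, and -1.06 for minocycline in mice with RSD (SE 0.27, adjusted p = 0.0237), 1 of 9 against 3.6%.

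Without the library labelled 9674, whose tissue label its markers contradict, the log2 fold change of Tlr2 was 0.84 for RSD (SE 0.33, adjusted p = 0.822) and -0.76 for minocycline (SE 0.32, adjusted p = 0.341), and neither was called. With a term for the number series the values were 0.84 (adjusted p = 0.291) and -0.51 (adjusted p = 0.771). In the hippocampus Tlr2 was 1.99 CPM in mouse 9643, 1.63 in 9646 and 1.54 in the library labelled 9674, within the AA range of 0.734 to 2.41. There 0 of 9 members were called for RSD, against 1.19% of all genes, and 0 of 9 for minocycline, against 2.67%.

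Tlr13 came nearest in both hippocampal comparisons of AA mice. It was 4.67 CPM in mouse 9643, 3.96 in 9646 and 3.96 in 9674, against 1.78 to 4.08 in AA (median 2.75) and 1.51 to 3.39 in AA + RSD + minocycline mice (median 2.88). Between treated and AA + RSD mice the log2 fold change was -0.64 (SE 0.21, adjusted p = 0.0817). DESeq2 called this difference (adjusted p = 0.0485), but with a term for the number series it was -0.07 (adjusted p = 0.930), and without 9674 it was -0.65 (adjusted p = 0.685). For RSD the log2 fold change was 0.53 (SE 0.22, adjusted p = 0.245), and with a term for the series 0.15 (adjusted p = 0.944).

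**Figure D5:**
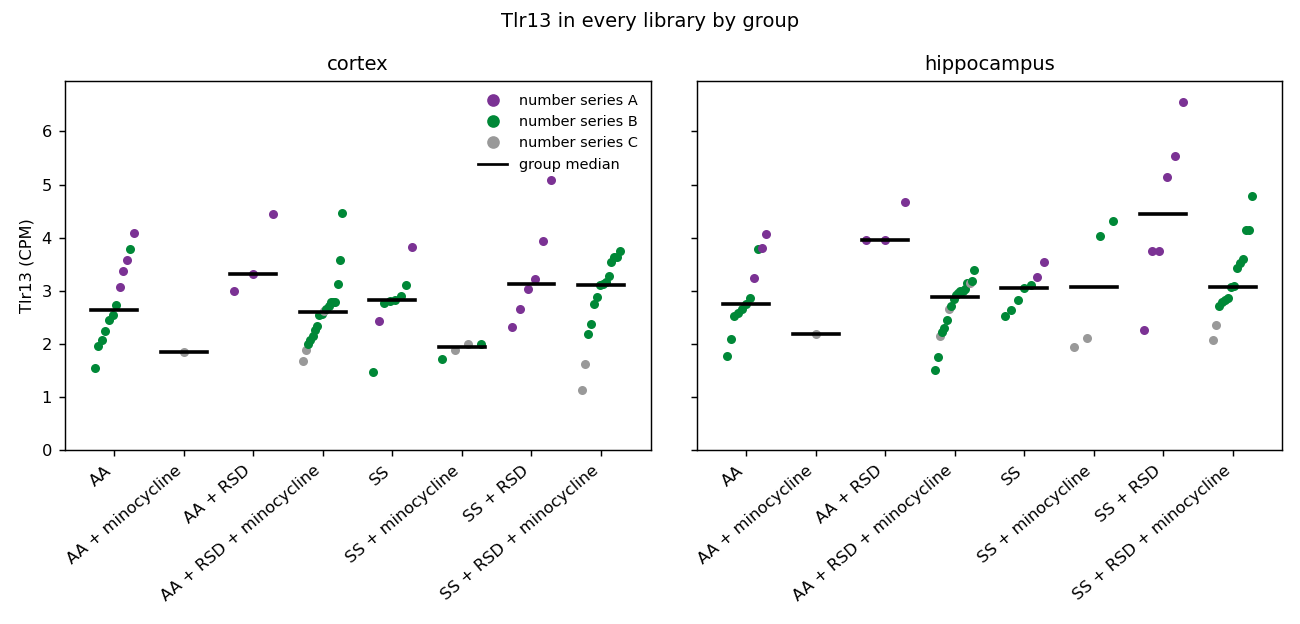
CPM of Tlr13 in every library by group, cortex on the left and hippocampus on the right, coloured by number series of the mouse, with the group median as a line. Control mice of series A (purple) lie higher than those of series B (green), with medians of 3.47 and 2.64 CPM in the cortex. Those of the hippocampus were 3.55 and 2.67 CPM.

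Tlr13 differed between control mice of the different number series, which no treatment separates. In the cortex the 6 series A controls, AA and SS together, held 2.44 to 4.09 CPM and the 14 series B controls 1.47 to 3.79. In the hippocampus the 5 of series A held 3.23 to 4.08 CPM and the 13 of series B 1.78 to 3.78. With genotype in the model the log2 fold change of series B against A was -0.50 in the cortex (SE 0.17, adjusted p = 0.0205) and -0.50 in the hippocampus (SE 0.14, adjusted p = 0.00649). This was 1 of 9 members called in each tissue, where 42.8% of all genes passed in the cortex and 44.3% in the hippocampus, a share of the members well under that of all genes. Over the 9 members, 7 had negative and 2 positive log2 fold changes in each tissue. Their medians were -0.21 in the cortex and -0.15 in the hippocampus, beside 0.01 and -0.001 over all genes. Since the mice with RSD alone were of series A and the treated mice of series B or C, the higher Tlr13 of AA + RSD and SS + RSD mice than of treated mice and the series are in the same direction. The microglial markers moved with the series as well: 8 of 10 were called lower in series B in the cortex and 7 of 10 in the hippocampus.

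Between genotypes under the same exposure no member was called. For SS + RSD against AA + RSD mice it was 0 of 10, where 0.493% of all genes passed in the cortex and 0.78% in the hippocampus, with the smallest p for Tlr2 in the cortex (log2 fold change -0.58, SE 0.33, adjusted p = 1) and Tlr5 in the hippocampus (0.66, SE 0.36, adjusted p = 0.636). Without the library labelled 9674 these were -0.30 and 0.33. In mice with RSD and minocycline it was 0 of 10, against 0.624% in the cortex and 2.74% in the hippocampus, and Tlr7 was nearest in both: its median was 2.86 CPM in SS and 2.28 in AA mice in the cortex (0.31, SE 0.15, adjusted p = 0.554) and 2.87 and 2.35 in the hippocampus (0.28, SE 0.12, adjusted p = 0.368). The effect of RSD did not differ by genotype past the threshold for any of the 10 members, where the share over all genes was 0.236% in the cortex and 0.0474% in the hippocampus. The smallest p of this interaction was that of Tlr2 in the cortex (log2 difference of the effects, SS minus AA, -0.84, SE 0.40, adjusted p = 1.00) and Tlr4 in the hippocampus (0.64, SE 0.38, adjusted p = 0.875). Without 9674 the former was -0.50, and the latter was 1.02 without mouse 9643 and 0.41 without 9621, none of them called.

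Few genes of the rest of the pathway were called in these comparisons, where few of all genes were called as well. Of 64 other genes, which were co-receptors and chaperones, adaptors, kinases and ligases, transcription factors, inhibitors, endogenous ligands, induced cytokine genes and the receptors Tlr11 and Tlr12, 55 to 58 were tested in each comparison of treatment or genotype. For RSD in SS mice 0 of 55 were called in the cortex and 0 of 56 in the hippocampus, against 2.57% and 3.11% of all genes. With minocycline in SS + RSD mice, 2 of 55 were called higher and 2 lower in the cortex, against 8.85% of all genes. In the hippocampus 1 of 56 was called higher and 1 lower, against 5.96%. For minocycline in SS + RSD mice, Irak1 (log2 fold change 0.48, SE 0.15, adjusted p = 0.0483) and Chuk (0.71, SE 0.23, adjusted p = 0.0485), kinases on the way to NF-kappaB, were higher in the cortex, and Hsp90b1 (-0.50, SE 0.12, adjusted p = 0.0126), a chaperone of the receptors, and Ptgs2 (-0.65, SE 0.16, adjusted p = 0.0131), the inducible cyclooxygenase, were lower. In the hippocampus the adaptor Ticam1 was lower (-0.36, SE 0.11, adjusted p = 0.0483) and the kinase Tbk1 higher (0.18, SE 0.06, adjusted p = 0.04995). None of these 6 was called with a term for the number series, and Irak1, Chuk and Hsp90b1 in the cortex and Ticam1 in the hippocampus differed between series B and A in control mice in the same direction.

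In AA mice Lbp, the lipopolysaccharide-binding protein, was called higher with RSD in the cortex (2.64, SE 0.54, adjusted p = 0.00671) and lower with minocycline after RSD (-3.17, SE 0.49, adjusted p = 0.000101). Its level was 1.44 CPM in mouse 9643, 0.819 in 9646 and 25.0 in the library labelled 9674, whose choroid plexus markers were high. Ptgs2 was also called lower with minocycline in the AA cortex (-0.75, SE 0.20, adjusted p = 0.0299), and its AA + RSD levels were 13.9, 13.7 and 31.5 CPM in the same mice. Without the libraries that stand apart 0 pathway genes were called in either comparison. Lbp was also called lower in SS + RSD than AA + RSD cortex, a comparison that holds the same library (-2.64, SE 0.63, adjusted p = 0.0225).

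Between the number series of control mice 8 of 53 pathway genes were called higher and 9 lower in series B in the cortex, and 5 of 55 higher and 11 lower in the hippocampus, a share below that of all genes (42.8% and 44.3%). Among those lower were Unc93b1, the chaperone that endosomal receptors such as Tlr13 need (-0.22, SE 0.08, in the cortex and -0.33, SE 0.11, in the hippocampus), and Cd14, the partner of Tlr4 (-0.52, SE 0.12, and -0.61, SE 0.15). Between tissues, 13 of 55 were higher and 5 lower in the hippocampus of AA mice and 10 higher and 1 lower in SS mice, a share near or below that of all genes (36.6% and 30.6%). Lbp (2.61, SE 0.44, in AA and 1.93, SE 0.53, in SS mice) and the scavenger receptor Cd36 (2.09, SE 0.30, and 1.23, SE 0.35) were higher in the hippocampus, and Il1b, an induced cytokine, was lower (-1.63, SE 0.34, and -1.16, SE 0.40). The choroid plexus markers Ttr (6.02), Folr1 (3.98), Kl (3.70) and Clic6 (3.62) were also called higher there in AA mice, and Kl alone (2.10) in SS mice. The part of choroid plexus in the Lbp values was not tested.

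Of the 6 endogenous ligands listed, only S100a8 and S100a9 were called between genotypes, and only in mice with both RSD and minocycline. In such mice S100a8 and S100a9, the neutrophil proteins that are described as ligands of Tlr4, were higher in SS than AA mice in the cortex (2.09, SE 0.43, adjusted p = 0.00255, and 2.25, SE 0.43, adjusted p = 0.00126) and in the hippocampus (2.005, SE 0.60, adjusted p = 0.0377, and 1.96, SE 0.54, adjusted p = 0.0249). The levels were low, with a median of 0.631 CPM of S100a9 in SS and 0.130 in AA cortex. In this model of all groups the smallest group had 1 library (AA + minocycline), so a gene high in few libraries could pass the filter on low counts. Of the pathway genes 3 of 57 were called higher in the cortex and 3 of 58 in the hippocampus, where 0.624% and 2.74% of all genes passed. Also higher in SS mice were the inhibitor Nfkbia in the cortex (0.46, SE 0.11, adjusted p = 0.0303) and Irak3, an inhibitor of receptor signalling, in the hippocampus (0.52, SE 0.14, adjusted p = 0.0193). In a model of these groups alone 0 pathway genes were called in either tissue, S100a8 and S100a9 being removed there by the filter on low counts. In the hippocampus S100a8 was also not called by DESeq2 or without that filter, nor Irak3 with the share of reads outside genes as a term, and in the cortex Nfkbia was not called without the filter or without the 5 mice whose libraries stand apart. S100a8 and S100a9 are also among the 7 neutrophil markers, whose summed level was 0.195 to 5.21 CPM in SS and 0.0800 to 1.64 in AA mice of this comparison in the cortex. The part of blood cells in these values was not tested.

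Across libraries, after the mean of each group was taken off, the members differed in which genes they followed. This is given as a description over libraries that share depth and cell content. The number series was not taken off, so differences between series within a group remain in these values. The genes named had the highest values of 14669 compared in the cortex and 14697 in the hippocampus. Other members had such values too, as Tlr4 with Rps6ka6 in the cortex (0.79). Tlr13 had its highest Pearson correlations with Adgre1, the macrophage marker F4/80 (0.74 over 66 cortex and 0.74 over 64 hippocampus libraries), with Tlr7 in the cortex (0.73) and with Lyz2, lysozyme, in the hippocampus (0.74). Tlr3 followed Mfap3l, Ednrb and Bmpr1b in the cortex (0.87, 0.84 and 0.82) and Bmpr1b in the hippocampus (0.80), and Tlr9 followed Ntrk2 (0.79) and P2rx7 (0.76) in the respective tissues. With the mean of the microglial markers, the correlation was 0.68 in the cortex and 0.50 in the hippocampus for Tlr2 and 0.55 and 0.53 for Tlr13. For Tlr9 it was 0.06 and -0.08, for Tlr7 0.41 and 0.34, for Tlr6 0.20 and 0.49, and for Tlr5 0.08 and -0.39. For Tlr3 it was 0.31 and 0.22, for Tlr4 0.19 and 0.26, for Tlr8 0.18 and 0.12, and for Tlr1 -0.01 and -0.11.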

How the data were processed

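RNA of cortex and hippocampus was sequenced from directional polyA libraries as single-end 85-base reads. The authors aligned the reads with STAR to GRCm39, counted them per gene of a GENCODE annotation during mapping and deposited raw counts, 1 table a tissue. The strand setting and the annotation release are not given in the sources used here. Summary lines (reads unmapped, at several places or outside genes), 16.6 to 51.7% of a library's total, stayed out. In all, 3 columns that the labels do not tie to a group were not used, and 2 identical pairs of libraries were left out.

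Genes were kept by filterByExpr (at least 10 counts, in total at least 15), scaled by TMM and tested with edgeR 4.0.16 (R 4.3.3, limma 3.58.1), quasi-likelihood, 1 model for each genotype and tissue as in the authors' methods, and 1 model of all groups of a tissue between genotypes. The filter asks for its level in as many libraries as the smallest group of a model holds. That was 1 (AA + minocycline) in the models of all AA groups and of all groups of a tissue. P-values were adjusted by Benjamini-Hochberg over all genes tested, and a gene was called at 0.05. CPM are counts divided by the library's reads on genes, times 1000000. Levels relative to microglia and log2 CPM for correlations used a prior count of 2. DESeq2 1.42.0 was an alternative. The code was tested on simulated data. The mouse numbers of cortex and hippocampus libraries pair them, since they name the same animal, and the deviations of the 18 control pairs correlated at 0.239 to 0.779. The members and gene lists were chosen with earlier results of these data known. Of members, values are given for each one called, or that with the smallest p, and of other genes at most 4 called a list, with a few further ones named after their values were seen.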

Additional observations from a re-analysis of the deposited data

Results flagged for a closer look

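Among 60 sets of values, each of 1 member in 1 group of 4 to 10 libraries, 7 had a library whose gap to the others exceeded Dixon's 95% critical value. The sets share libraries and are not independent, so no rate by chance is set beside these 7. In the hippocampus of SS + RSD mice these were 3 values of mouse 9615, whose microglial, T cell and monocyte markers were the highest of the hippocampus: Tlr2 at 5.48 CPM against 1.18 to 2.38 in the others, Tlr1 at 1.25 CPM against 0.303 to 0.597, and Tlr8 at 0.393 CPM against 0.0310 to 0.114. In the cortex of SS + RSD mice they were 2 values of mouse 9621, Tlr3 at 17.96 CPM against 9.06 to 12.3 and Tlr4 at 2.62 CPM against 0.626 to 1.26. Tlr4 stood at 1.41 CPM in the hippocampus of SS mouse 5785 against 0.958 to 1.11, and Tlr8 at 0.718 CPM in the cortex of SS + minocycline mouse 9888 against 0 to 0.0962. The effect of RSD did not differ between genotypes past the threshold in any of 20 interaction tests.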

How the results depend on the processing

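Of the values under other settings, 232 counts of called members stayed within their main value and 9 rose and 21 fell past it, and of single values 266 kept side and direction, 21 lost and 3 gained the call, 11 moved by more than the spread and 1 reversed. The count for AA + RSD against AA in the cortex (Tlr2) was 0 without the filter on low counts, with the number series as a term, with the share of reads outside genes as a term, without the 5 mice whose libraries stand apart, and in a model of the groups compared only, and 0 to 1 with each AA + RSD mouse left out. That for minocycline in AA + RSD cortex (Tlr2) was 0 under the first 4 of these, and 0 to 1 with each mouse left out. For SS + RSD + minocycline against SS + RSD in the hippocampus (Tlr2) it was 0 without the filter and with either term, and 0 to 2 with each SS + RSD mouse left out, the adjusted p being 0.0517 without 5391, 0.0590 without 5354, 0.0634 without 9616, 0.0545 without 9621 and 0.217 without 9615. DESeq2 called 1 member (Tlr13) for SS + RSD against SS and 1 (Tlr13) for AA + RSD + minocycline against AA + RSD in the hippocampus, and the former count was 0 to 1 with each mouse left out. In series B only, 1 member (Tlr2) was called for SS + minocycline against SS in the cortex. Between series in hippocampal controls 2 were called by DESeq2 and 2 without the 5 mice (Tlr2 at adjusted p = 0.0456 and 0.0325 beside Tlr13). The log2 fold change of Tlr13 for SS + RSD + minocycline against SS + RSD in the cortex reversed to 0.0926 with the number series as a term. Except for fits on fewer samples or more genes, the cause of these shifts was not tested.

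With the mouse as a paired replicate block, 2 members were called between tissues in AA mice (Tlr2, Tlr4) and 2 in SS mice (Tlr3, Tlr9). The share of all genes called with this block is not given here. Without the block it was 36.6% in AA and 30.6% in SS mice. Between tissues in SS mice 0 were called without the filter on low counts (Tlr9 at adjusted p = 0.0698) and 0 in a model of SS mice only (0.125). The length of the canonical transcript, an alternative chosen after seeing the data, moved 8 of 20 levels per kilobase by more than 1 SD. At median counts under 50 reads for 7 of 10 members, and 3 for Tlr8, small differences were not detectable.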
